A study of Mus musculus with 25 samples.

Results

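Fgf15 and 9 further genes of fibroblast growth factor (FGF) signalling were followed in mouse embryos with and without the miR-302 microRNAs. The genes were taken by name, as every probe whose platform annotation gave the symbol Fgf15, Fgf8, Fgf17, Fgfbp3, Fgfr1, Fgfr2, Fgfr3, Spry1, Dusp4 or Etv4. These 10 genes had 19 of the 25697 probes of the array, and 16 of the 19 were detected (detection p under 0.05) on at least 3 of the 25 arrays. All 10 genes kept at least 1 probe and entered the test of 10261 genes, although Spry1 was detected on only 3 arrays.

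The embryos were of the B6 strain, and each array, an Illumina bead chip (MouseRef-8 v2.0), read the RNA of 1 sample. The labels give the genotype as knockout (KO) of miR-302 or wild type (WT) and name no allele. At embryonic day 7.5 (E7.5) the tissue was the whole embryo, with 2 WT and 3 KO arrays. Anterior neural tissue was used at E8.0 (2 WT and 3 KO arrays), E8.5 (3 and 3) and E9.5 (4 and 4), and a further WT array of that first neural stage carried a whole-embryo label and was kept as a group of its own. The design text states that replicates were independent embryos.

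FGF ligands bind receptor tyrosine kinases at the cell surface and switch on the RAS and ERK kinase cascade, which in turn raises transcription factors of the Etv family and feedback inhibitors of the Sprouty and dual-specificity phosphatase families. In the early brain, Fgf8 and Fgf17 are made at the isthmus, the border of midbrain and hindbrain that patterns its neighbours, and Fgf15 is made in the neural tube. The miR-302 microRNAs are abundant in pluripotent and early embryonic cells and repress transcripts through sites that pair with bases 2 to 8 of the microRNA, its seed.

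The mature 3p strands of the cluster are shown because the knockout is named for them; miR-302a is a further member. Sequences are RefSeq's on GRCm38.p6, plus strand of chromosome 3, at chr3:127545275-127545297 (miR-302b), chr3:127545406-127545427 (miR-302c), chr3:127545665-127545687 (miR-302d) and chr3:127545779-127545800 (miR-367), with the seed in capitals. The seeds of miR-302b and miR-302d were the same, AAGUGCU. That of miR-302c, AGUGCUU, shared the letters AGUGCU with them, which began 1 base earlier in that microRNA. The microRNA miR-367, which lies beside them, had a different seed. Whether the allele removes miR-367 is not given in the labels. Transcripts of the 10 genes were not searched for these seeds here.
miR-302b-3p: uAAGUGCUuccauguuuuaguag
miR-302c-3p: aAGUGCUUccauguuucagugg
miR-302d-3p: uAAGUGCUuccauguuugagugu
miR-367-3p: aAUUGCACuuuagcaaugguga

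The median raw signal of an array was 107 to 148 at E7.5 to E8.5 and 222 to 262 at E9.5, and 42.5% to 47.5% and 50.2% to 53.0% of probes were detected. All 8 E9.5 arrays were on plate 4 and no earlier array was, so plate and stage cannot be told apart in any comparison with E9.5. Within groups, arrays correlated at 0.971 to 0.996 over all probes, detected or not. For the 3 E8.0 WT arrays the files disagree on which array is which. The series matrix places their signals under other replicate numbers than the raw table, and in the raw table itself each of their 3 detection columns ranked best with the signals of another of the 3, in the order of the series matrix (rank agreement of at least 0.974, against at most 0.883 with the column of the same name). The other 22 columns matched in both. The identities of the raw table's signal columns are used below, and each E8.0 WT value is subject to this. No probe reads the miR-302 microRNAs, so the genotype could not be checked on these arrays. Of 7 neural progenitor markers, Nes was detected on 25 arrays and Sox2 on 23, while Sox3 was detected on 1 and Pax6 on 0. Blood markers were also present, with a mean log2 level of 9.72 to 12.6 on the neural arrays.

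Values below are normalised log2 signals of 1 probe per gene, and differences are KO minus WT on that scale with the standard error (SE) of limma's fit to all 25 arrays. A gene passed at a Benjamini-Hochberg adjusted p under 0.05 over all genes of the comparison. The probes differ in response, so levels are compared between arrays and not between genes.

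Differences between KO and WT embryos in these genes passed the test at the last stages. At E7.5, 0 of the 10 genes passed in limma, beside 0.224% of all genes. An unadjusted p under 0.05 was found for 2 of the 10, beside 817 of all 10261 genes. At E8.0, again 0 of 10 passed, beside 1.73% of all genes. There 2 of the 10 had an unadjusted p under 0.05, beside 2039 of all 10261 genes. With the series matrix's identities and matched detection columns, 0 of 10 passed there too, and 16 genes of all passed in place of 178. At E8.5, 4 of the 10 passed, beside 5.59% of all genes. These were Fgf15, Fgfbp3 and Etv4, which were higher in the KO, and Dusp4, which was lower. With plate as a random block 0 of the 10 passed at E8.5, beside 223 of all 10261 genes. With each stage fitted alone 0 of the 10 passed there, beside 0 of all genes. At E9.5, 5 of the 10 passed, beside 2.27% of all genes, and all of these were higher in the KO: Fgf15, Fgfbp3, Fgfr3, Dusp4 and Etv4. The median difference over the 10 genes was -0.41 at E7.5, -0.28 at E8.0, 0.51 at E8.5 and 0.68 at E9.5, while the median over all genes lay within 0.03 of 0 at each stage. The 10 genes were proposed with results of these arrays known, so these counts describe them and are no independent evidence. In bulk tissue, fewer cells of a type and less RNA per cell cannot be told apart.

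**Figure D1:**
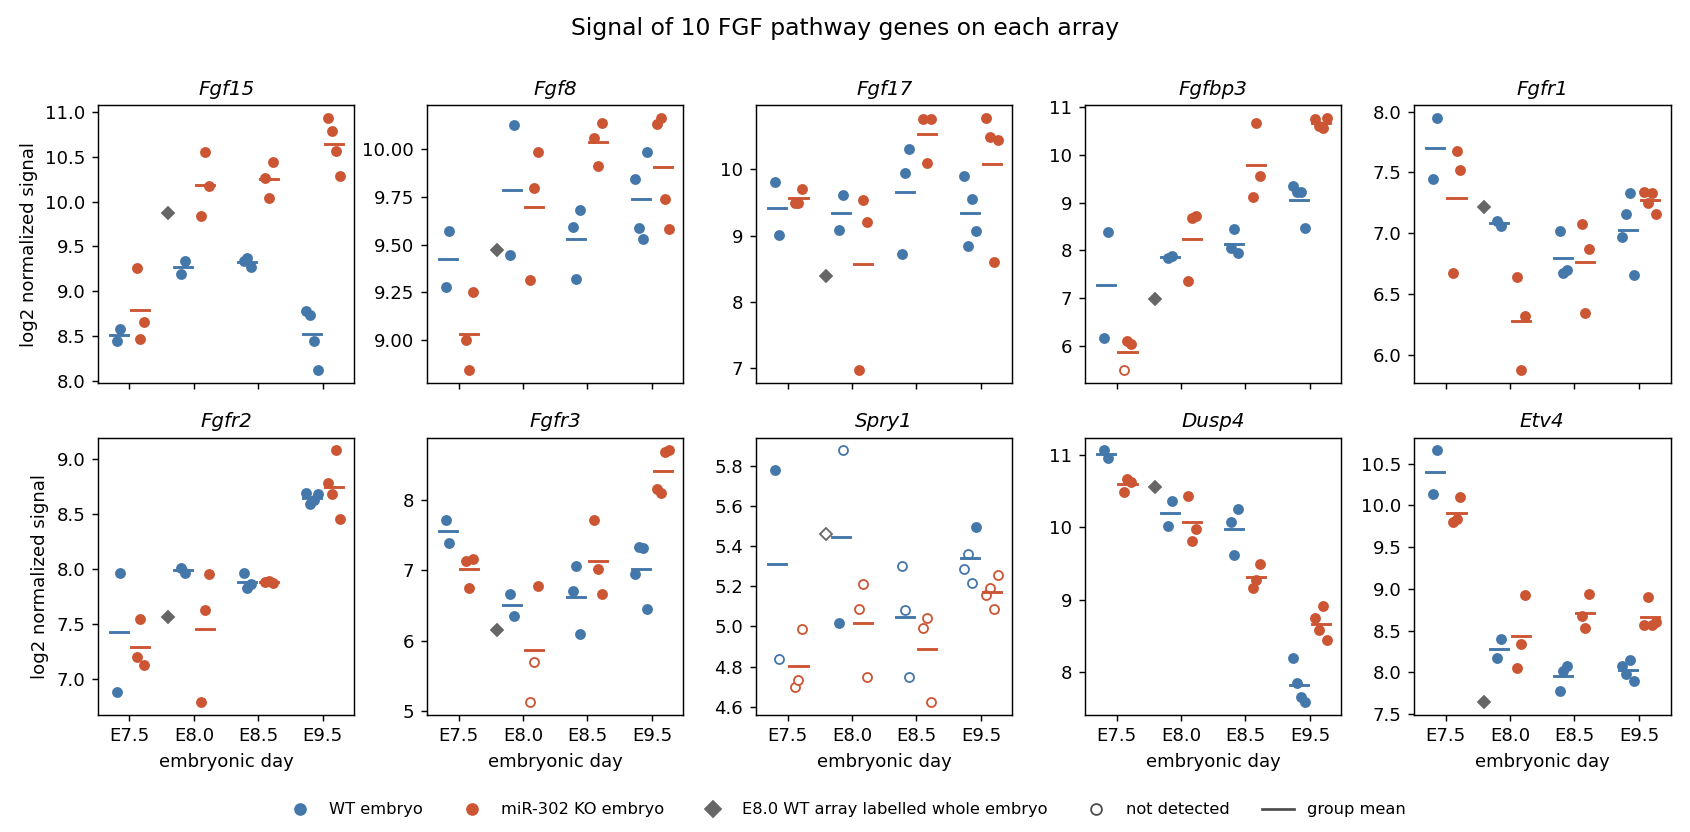
Normalised log2 signal (vertical axis, a separate range in each panel) of the 10 genes on each array by embryonic day, with WT in blue, KO in orange, the whole-embryo WT array of E8.0 as a grey diamond, open symbols where the probe was not detected, and a line at each group mean, with E8.0 WT arrays named as in the raw table. The E9.5 KO arrays of Fgf15 lie between 10.28 and 10.93, above the 4 WT arrays at 8.12 to 8.77.

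Fgf15, a secreted FGF ligand, was the gene of this set with the largest KO difference at E9.5. Its probe was detected on all 25 arrays. At E7.5 it read 8.44 and 8.57 in the WT and 9.26, 8.46 and 8.65 in the KO. The ranges overlapped, and the difference of 0.28 did not pass (SE 0.25, limma adjusted p = 0.827). Within plate 1 it was 0.05.

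At E8.0 Fgf15 read 9.19 and 9.34 in WT neural tissue and 9.84, 10.56 and 10.17 in the KO. Each KO array was above both WT neural arrays, but the difference of 0.92 did not pass (SE 0.25, limma adjusted p = 0.0585). The whole-embryo WT array of E8.0 read 9.87, which is inside the KO range. In the series matrix that array is a neural one, so that the WT neural arrays read 9.34 and 9.87 and the genotypes overlap. With those identities the E8.0 difference was 0.58 (limma adjusted p = 0.325), also when the detection columns were matched to the signals (0.58, 0.326). Over 25 alternative settings it ran from 0.52 to 1.14 with adjusted p from 0.0112 to 0.404, and it passed in 3 of them. Within plate 1 it was 1.10 (limma adjusted p = 0.0730) with the raw table's identities. With the raw table's identities, trophoblast markers at E8.0 had a mean over 7 genes of 7.12 and 7.45 in WT neural tissue. In the KO it was 7.69 to 8.37, and 1 of the 7 passed, Hand1. The whole-embryo array read 8.04. With the identities of the series matrix the WT neural arrays read 7.12 and 8.04, and the genotypes overlap. Forebrain means at E8.0 were 5.83 to 6.55 in the KO, below the WT neural arrays (6.71 and 6.72) and the whole-embryo array (7.12). Hindbrain means were 8.56 to 8.87 in the KO, below 9.11, 9.35 and 9.27 on those WT arrays. Primitive streak and caudal means were at least 6.22 in the KO, above 6.13, 6.10 and 5.97. These lists kept the genotypes apart with either set of identities, with no marker past the threshold. The other lists overlapped with at least 1 set. The part of all these markers was not tested.

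At E8.5 Fgf15 read 9.34, 9.37 and 9.27 in the WT and 10.26, 10.04 and 10.44 in the KO. The WT arrays lay close together and every KO array was above them. The difference was 0.92 (SE 0.22, limma adjusted p = 0.0229), or 1.89-fold. Plate 2 held all 3 WT arrays with KO replicate 1, and plate 3 held the other KO arrays. Within plate 2, where KO replicate 1 is the only KO array, the difference was 0.93 (limma adjusted p = 0.211). The call was also lost without KO replicate 3 (0.82, adjusted p = 0.0798), WT replicate 1 (0.93, 0.0796) or WT replicate 3 (0.89, 0.0604), all limma values. Over 23 alternatives the difference ran from 0.80 to 1.03 and the adjusted p from 0.00730 to 0.211.

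At E9.5 Fgf15 read 8.77, 8.73, 8.44 and 8.12 in the WT and 10.93, 10.79, 10.56 and 10.28 in the KO. The lowest KO array, at 10.28, was above the highest WT array, at 8.77. The difference was 2.13 (SE 0.19, limma adjusted p = 7.37e-06), or 4.37-fold, and all 8 arrays were on plate 4. It passed under each of the 24 alternatives run, at 1.79 to 2.25 with adjusted p from 3.96e-08 to 0.000887.

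Markers of brain regions moved with the E9.5 results. Of 11 midbrain and isthmus markers 7 were tested at E9.5, and 4 passed, all higher in the KO. These were the homeobox genes En1 (2.48), En2 (2.45) and Gbx2 (1.82) and the ligand Wnt1 (1.56). Of the 7 differences 5 lay above 0, with a median of 1.56, and 0 passed as lower. Pax2, Pax5 and Pax8 were detected on 0 arrays. The mean log2 level of the 7 markers was 7.71 to 8.01 on the E9.5 WT arrays and 8.70 to 9.31 on the KO arrays. At E8.5 it was 9.33 to 9.45 in the WT and 8.89 to 9.45 in the KO, and at E8.0 9.15 to 9.20 and 8.72 to 9.29. The part of these markers in the E9.5 values of Fgf15, Fgfbp3, Fgfr3, Dusp4 and Etv4 was not tested.

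Neural progenitor markers were also higher on the E9.5 KO arrays, with a mean over 5 tested genes of 7.37 to 8.14 in the WT and 8.73 to 9.02 in the KO, and 1 passed, Hes5 (2.15). Of 9 forebrain markers 6 were tested and 3 were lower in the KO, Six3 (not well above background on the 4 KO arrays, and at least 1.45-fold lower), Dmrt3 (-1.30) and Wnt8b (-1.14), with means of 6.26 to 6.76 in the WT and 5.29 to 6.21 in the KO. Of 6 hindbrain markers 4 were tested and 1 was higher, Hoxb2 (1.17), at means of 6.55 to 8.09 and 7.44 to 8.70. Of 8 primitive streak and caudal markers 5 were tested and 1 passed, Wnt3a, which was higher (1.36). Of these 5 differences 3 lay above 0, with a median of 0.07. At E9.5 the surface ectoderm markers had means of 9.72 to 10.3 in the WT and 9.58 to 9.72 in the KO, those of head mesenchyme and neural crest 9.43 to 9.59 and 9.05 to 9.75, those of blood 12.4 to 12.6 and 12.0 to 12.3, and those of trophoblast 6.35 to 6.46 and 6.11 to 6.34, with none past the threshold. At E8.5, beside the calls of Fgf15, Fgfbp3, Dusp4 and Etv4, 1 forebrain marker and 1 hindbrain marker were lower and 1 surface ectoderm marker was higher. The E8.5 means of surface ectoderm markers were 9.22 to 9.64 in the WT and 9.75 to 10.28 in the KO. Those of forebrain markers were 6.87 to 7.24 and 6.24 to 6.76, and those of primitive streak and caudal markers 6.01 to 6.13 and 6.23 to 6.46. The genotypes overlapped there in the means of the other marker lists. Their part in these results was not tested.

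The KO difference of Fgf15 was larger at E9.5 than at E8.5 by 1.21 (SE 0.29, limma adjusted p = 0.0166). Of all genes, 10.1% passed this test of the difference between stages, and of the 10 genes 2 did, Fgf15 and Dusp4. For Fgf15 it was lost without E8.5 KO replicate 2 (1.10, adjusted p = 0.0527) and with the E8.5 arrays limited to plate 2 (1.19, 0.114), both limma values. The range over 31 alternatives was 0.99 to 1.33, with adjusted p from 0.00562 to 0.114.

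Ordered by group mean, Fgf15 was lowest in the E7.5 WT (8.51) and the E9.5 WT (8.52), followed by the E7.5 KO (8.79), the E8.0 WT (9.27), the E8.5 WT (9.33), the E8.0 WT whole-embryo array (9.87), the E8.0 KO (10.19), the E8.5 KO (10.25) and the E9.5 KO (10.64). Neighbours in this order overlapped in their array values, except that the whole-embryo array was above every E8.5 WT array. Within WT neural tissue the mean differed by 0.06 between E8.0 and E8.5 (limma adjusted p = 0.999), and by -0.28 with the identities of the series matrix.

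From E8.5 to E9.5 the normalised level of Fgf15 in the WT was lower by 0.81 (difference -0.81, SE 0.21, limma adjusted p = 0.00353), and in the KO it differed by 0.40 (SE 0.21, limma adjusted p = 0.146). This pair of values depends on how the brighter E9.5 arrays are scaled. With each array scaled to its median, which moved the median of all genes to 0.42 in the WT and 0.56 in the KO, the WT difference was -0.03 (limma adjusted p = 0.940) and the KO difference 1.22 (0.000403). In the authors' series matrix, the WT difference was 0.14 (limma adjusted p = 0.458) and the KO difference 1.14 (6.50e-06). Relative to the median of all genes, the WT difference of Fgf15 was -0.45 with median scaling and -0.31 in the series matrix. The comparisons of KO with WT and of stage with stage share arrays, so they are not independent of each other.

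**Figure D2:**
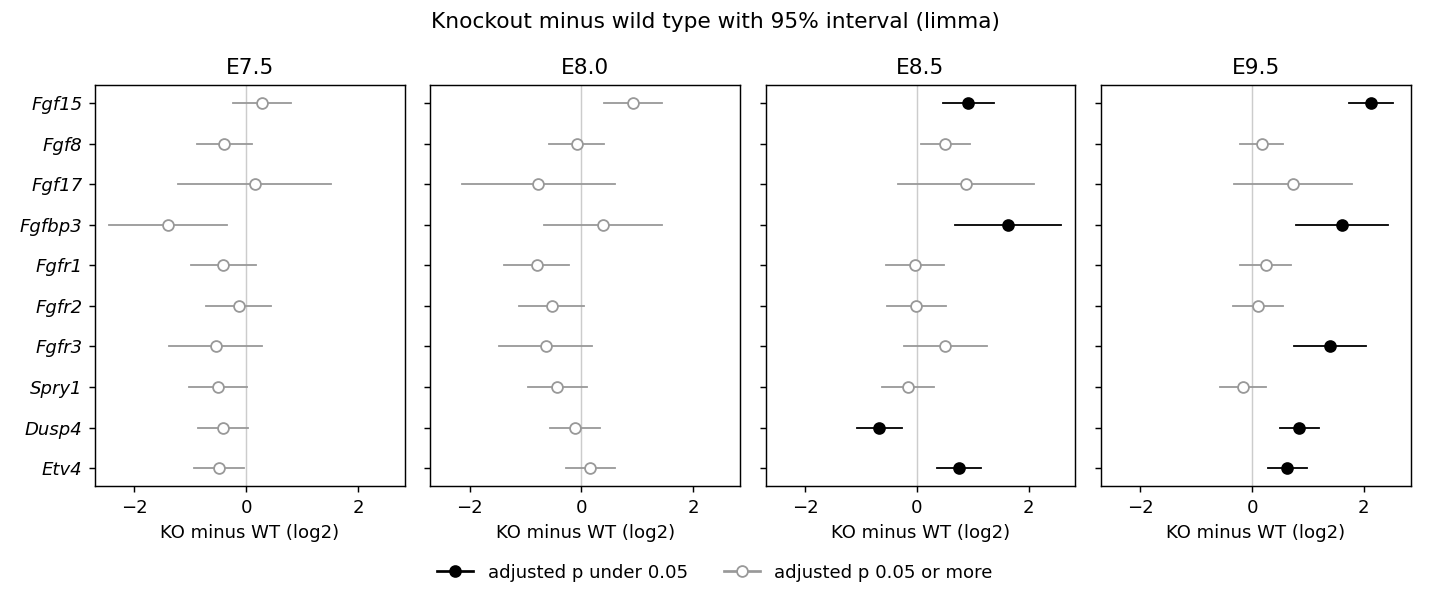
Difference KO minus WT (log2, horizontal axis) of each of the 10 genes at 4 stages, with the 95% interval from limma, filled where the adjusted p was under 0.05. Fgf15 moves from 0.28 at E7.5 to 2.13 at E9.5, and Dusp4 lies below 0 at E8.5 and above 0 at E9.5.

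Fgf8, the ligand that carries the organising activity of the isthmus, was detected on all 25 arrays and passed in no KO comparison. At E8.5 it read 9.59, 9.32 and 9.68 in the WT and 10.06, 9.91 and 10.14 in the KO. Every KO array was above every WT array, and the difference of 0.51 (95% interval 0.07 to 0.94) had a limma adjusted p = 0.148. At E9.5 it read 9.85, 9.59, 9.53 and 9.99 in the WT and 10.13, 10.16, 9.74 and 9.58 in the KO. There the groups overlapped, with a difference of 0.17 (95% interval -0.21 to 0.55). The differences were -0.39 at E7.5 and -0.09 at E8.0, and the second turned sign under 8 of 25 alternatives.

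Fgf17, a ligand closely related to Fgf8, also passed in no KO comparison and had the widest spread. At E8.0 KO replicate 1 read 6.98 and the other KO arrays 9.55 and 9.21, beside 9.08 and 9.62 in the WT. The E8.0 difference was -0.77 (SE 0.65), and without KO replicate 1, the only E8.0 KO array on plate 2, it was 0.03. That same array had the lowest mean of the neural progenitor markers among the E8.0 arrays, 6.21 against 7.08 to 7.54 on the other 5, and their part in the result was not tested. At E9.5 Fgf17 read 9.90, 8.85, 9.55 and 9.07 in the WT and 10.78, 10.50, 8.60 and 10.44 in the KO. KO replicate 3 was below all WT arrays and the other KO arrays were above them. On that array the forebrain markers had a mean of 6.21, against 5.29 to 5.42 on the other KO arrays, head mesenchyme and neural crest markers 9.75 against 9.05 to 9.24, and midbrain and isthmus markers 8.70 against 8.77 to 9.31, and their part was not tested. The groups overlapped, and the difference was 0.73 (95% interval -0.32 to 1.79, limma adjusted p = 0.492). A second Fgf17 probe, detected on 21 arrays, gave 0.72 at E8.5 and 0.54 at E9.5, beside 0.88 and 0.73 for the first, and neither passed.

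Fgfbp3 encodes a secreted binding protein that releases FGFs from the matrix around cells. At E8.5 it read 8.04, 8.45 and 7.94 in the WT and 9.11, 10.67 and 9.56 in the KO. All KO arrays were above all WT arrays, with replicate 2 well above the rest, and the difference was 1.64 (SE 0.45, limma adjusted p = 0.0416), or 3.11-fold. Within plate 2 it was 0.96 (limma adjusted p = 0.503), and the call was lost when KO replicate 2 (1.19), KO replicate 3 (1.74), WT replicate 1 (1.58), WT replicate 2 (1.79) or WT replicate 3 (1.53) was left out. Over 23 alternatives the limma adjusted p ran from 0.0101 to 0.503, and 11 passed.

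At E9.5 Fgfbp3 read 9.34, 9.22, 9.22 and 8.47 in the WT and 10.74, 10.60, 10.56 and 10.77 in the KO. The KO arrays lay close together and above all WT arrays. The difference was 1.61 (SE 0.39, limma adjusted p = 0.0356), or 3.04-fold. It kept its size when single arrays were left out, at 1.41 to 1.70, but the call was lost without any 1 KO array (1.57 to 1.64) or without WT replicate 2 (1.66), 3 (1.66) or 4 (1.41), and over 24 alternatives the limma adjusted p ran from 0.000393 to 0.162.

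At E7.5 the order of Fgfbp3 was the reverse, with 6.18 and 8.38 in the WT and 5.50, 6.11 and 6.04 in the KO, 1 KO array not being detected. The WT value of 8.38 stands apart, and the difference of -1.39 did not pass (SE 0.51, limma adjusted p = 0.437). Without WT replicate 1 it was -2.49 (limma adjusted p = 0.0315), which then rests on WT replicate 2 alone, and over 22 alternatives the adjusted p ran from 0.0315 to 0.964. A second Fgfbp3 probe was detected on 0 of 25 arrays and gives no value.

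Of the receptors, Fgfr1 and Fgfr2 passed in no KO comparison. Fgfr1, which transmits Fgf8 signals in the early brain, read 7.11 and 7.06 in the E8.0 WT and 6.64, 5.88 and 6.32 in the KO. Its KO arrays were all below the WT arrays, but the difference of -0.80 (95% interval -1.38 to -0.22) had a limma adjusted p = 0.124, and it passed only with array weights among the 25 alternatives (range 0.0162 to 0.422). Its differences were -0.41 at E7.5, -0.03 at E8.5 and 0.24 at E9.5, and the E8.5 value turned sign under 7 of 23 alternatives. Fgfr2 read 8.69, 8.59, 8.63 and 8.68 in the E9.5 WT and 8.77, 8.68, 9.08 and 8.45 in the KO. The groups overlapped there, at a difference of 0.10 (95% interval -0.35 to 0.55), and its differences at the earlier stages were between -0.53 and -0.01.

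Fgfr3, a receptor of early neural progenitors, was higher in the KO at E9.5. It read 6.95, 7.34, 7.32 and 6.45 in the WT and 8.16, 8.10, 8.68 and 8.71 in the KO, with every KO array above every WT array. The difference was 1.40 (SE 0.31, limma adjusted p = 0.0226), or 2.63-fold. The call was lost without KO replicate 3 (1.31, adjusted p = 0.0690), KO replicate 4 (1.30, 0.0733) or WT replicate 4 (1.21, 0.113), and over 24 alternatives the limma adjusted p ran from 0.000286 to 0.113. At E8.5 the groups overlapped (difference 0.51, limma adjusted p = 0.415), and the KO difference of Fgfr3 did not differ detectably between E9.5 and E8.5 (0.89, SE 0.47, limma adjusted p = 0.237). At E8.0 it was detected on 1 of 3 KO arrays. A second Fgfr3 probe was detected on 1 of 25 arrays.

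Other probes of these receptors were dim. A second Fgfr1 probe was detected on 9 arrays, and Fgfr2 had further probes detected on 8 and 3 arrays. None of these was detected in both genotypes at E8.5, so their differences there are not measured. At E9.5 the second Fgfr1 probe, detected on 3 WT and 3 KO arrays, had means of 5.58 and 5.52. The Fgfr2 probe detected on 8 arrays had 5.53 (3 WT arrays detected) and 5.18 (2 KO arrays detected). For both probes the mean was lower in the KO, the other way from the main probes. The Fgfr2 probe detected on 3 arrays had a higher mean in the KO, 5.18 in the WT (0 arrays detected) and 5.40 in the KO (2 arrays detected). With no WT array detected, its difference is not measured. All these values are close to background.

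Among the feedback genes, Spry1, an inhibitor of receptor tyrosine kinase signalling, was close to background. Its probe was detected on 1 array each of the E7.5 WT (log2 5.78), the E8.0 WT and the E9.5 WT (5.50), and on 0 of the 13 KO arrays. In the E8.0 WT the array at 5.02 is marked detected and that at 5.88 is not, which is the other way round when the detection columns are matched to the signals. A second probe was detected on 0 of 25 arrays. Values from 4.62 to 5.88 were recorded on the 25 arrays, and no fold is given because neither genotype was above background at most stages.

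Dusp4, a nuclear phosphatase that inactivates ERK and is induced by it, differed between the genotypes in opposite directions at the last stages. At E8.5 it read 10.07, 9.61 and 10.26 in the WT and 9.16, 9.27 and 9.499 in the KO. All KO arrays were below all WT arrays. The difference was -0.67 (SE 0.19, limma adjusted p = 0.0479), a 1.59-fold lower level. The call was lost without KO replicate 1 (-0.60, 0.101), KO replicate 2 (-0.65, 0.146), KO replicate 3 (-0.76, 0.0666), WT replicate 1 (-0.62, 0.166) or WT replicate 3 (-0.53, 0.157), and in 15 of 23 alternatives in all, although each kept the direction (-0.86 to -0.51). Within plate 2 it was -0.82 (limma adjusted p = 0.213), and over all alternatives the limma adjusted p ran from 0.0254 to 0.213.

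At E9.5 Dusp4 read 8.19, 7.86, 7.66 and 7.59 in the WT and 8.75, 8.59, 8.91 and 8.44 in the KO. Here all KO arrays were above all WT arrays, by a mean of 0.85 (SE 0.17, limma adjusted p = 0.0112), or 1.80-fold. The call was lost without WT replicate 4 (0.77, limma adjusted p = 0.0620) and when the Dusp4 probes were averaged (0.52, 0.0615), and over 24 alternatives the adjusted p ran from 0.000238 to 0.0620. The difference between the stages in the KO effect was 1.52 (SE 0.26, limma adjusted p = 0.00290). It passed under each of 31 alternatives, at 1.02 to 1.75 with adjusted p from 0.000908 to 0.0337, among them the fit limited to plate 2 at E8.5.

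A second Dusp4 probe, detected on all 25 arrays, ran the same way with smaller differences. At E8.5 it read 8.42, 7.79 and 8.42 in the WT and 7.85, 7.504 and 7.92 in the KO, and at E9.5 6.62, 6.18, 6.36 and 6.22 in the WT and 6.95, 7.01, 6.85 and 6.76 in the KO. The groups overlapped at E8.5 and did not at E9.5. In the fit to every probe its differences were -0.45 (limma adjusted p = 0.208) and 0.55 (0.124), so neither passed, while the difference between the stages of 0.99 did (SE 0.27, 0.0312). In the same fit the first probe had -0.67 (0.0545) at E8.5 and 0.85 (0.0140) at E9.5. The third Dusp4 probe was detected on 3 arrays.

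**Figure D3:**
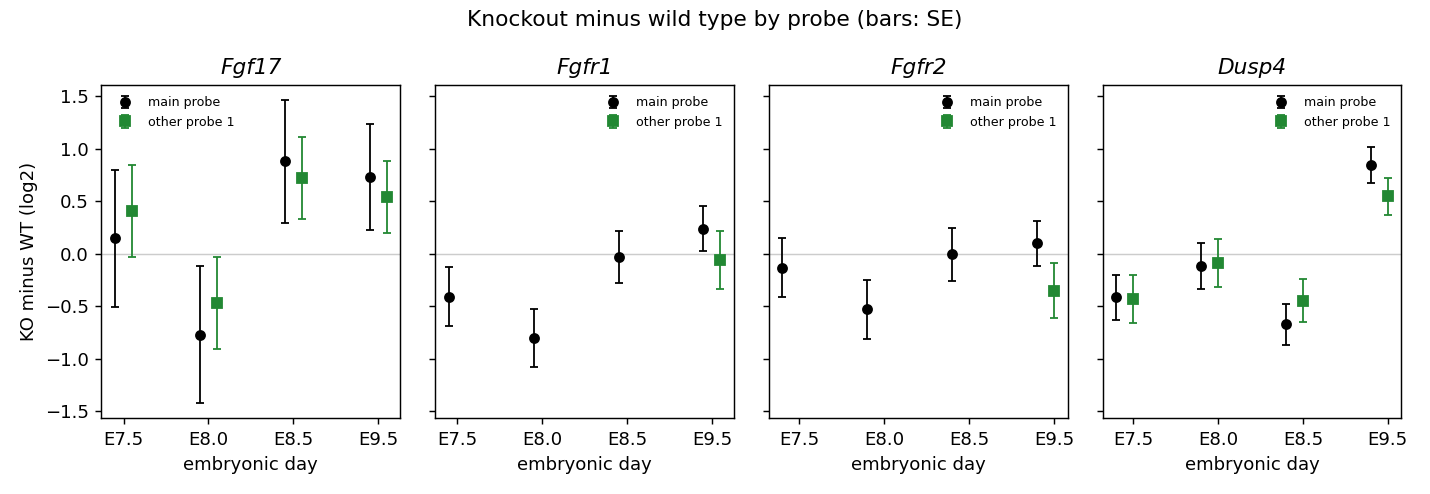
Difference KO minus WT (log2, vertical axis) by embryonic day for each tested probe of the 4 genes with more than 1, from limma's fit to all kept probes, with bars for the SE. A probe is left out at a stage where either genotype had it detected on 0 arrays. The first and second Dusp4 probes lie at -0.67 and -0.45 at E8.5 and at 0.85 and 0.55 at E9.5.

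Dusp4 was also the gene of this set with the strongest course over time. In the WT its normalised level was lower at E9.5 than at E8.5 (difference -2.16, SE 0.18, limma adjusted p = 5.97e-08), and this passed under each of 21 alternatives (-2.34 to -0.90). In the KO the same difference was -0.64 (limma adjusted p = 0.0106), but it was 0.34 (0.144) when arrays were scaled to their median and 0.26 (0.0833) in the authors' series matrix, so its direction depends on the scaling. It was also lost without E8.5 KO replicate 3 (-0.55, limma adjusted p = 0.0572). Between E8.0 and E8.5 the KO level was lower by 0.76 (difference -0.76, limma adjusted p = 0.0348). That call was lost without E8.5 KO replicate 1 (-0.69, 0.0810) or 2 (-0.74, 0.101) or E8.0 KO replicate 1 (-0.58, 0.190), with a range of the adjusted p from 0.0231 to 0.190 over 21 alternatives.

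Etv4, a transcription factor raised by FGF signalling and often read as its output, was higher in the KO at both last stages. At E8.5 it read 7.78, 8.02 and 8.08 in the WT and 8.68, 8.53 and 8.94 in the KO. At E9.5 it read 8.07, 7.98, 8.15 and 7.90 in the WT and 8.57, 8.90, 8.56 and 8.61 in the KO. At each of these stages every KO array was above every WT array. The differences were 0.75 (SE 0.19, limma adjusted p = 0.0286) and 0.63 (SE 0.16, limma adjusted p = 0.0472), or 1.69-fold and 1.55-fold. The KO effect did not differ detectably between the stages (-0.12, 95% interval -0.65 to 0.40).

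The calls of Etv4 depended on single arrays. At E8.5 the call was lost without KO replicate 2 (0.85), KO replicate 3 (0.64), WT replicate 1 (0.66) or WT replicate 2 (0.78), and within plate 2 the difference was 0.71 (limma adjusted p = 0.264). At E9.5 it was lost without any 1 KO array (0.55 to 0.67) and without WT replicate 2 (0.62), 3 (0.67) or 4 (0.59). Over the alternatives the limma adjusted p ran from 0.00638 to 0.264 at E8.5 and from 0.00150 to 0.172 at E9.5. At E7.5 Etv4 read 10.13 and 10.66 in the WT and 9.80, 9.84 and 10.10 in the KO, the highest levels of this gene in the series, in whole embryos. The KO arrays were below the WT arrays there, and the difference of -0.49 did not pass (SE 0.21, limma adjusted p = 0.569).

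From E8.0 to E8.5 in the WT, 0 of the 10 genes passed in limma, beside 0.039% of all genes. An unadjusted p under 0.05 was found for 0 of the 10, beside 701 of all 10261 genes. In the KO 1 of 10 passed, Dusp4, beside 3.21% of all genes. There 4 of the 10 had an unadjusted p under 0.05, beside 1991 of all 10261 genes. The other 3 were Fgf17 (1.96, adjusted p = 0.0728), Fgfbp3 (1.53, 0.0712) and Fgfr3 (1.27, 0.0582), with no overlap of the stages for Fgf17 and Fgfbp3, all limma values. The second Fgf17 probe, detected on 1 of 3 arrays at E8.0, read 1.58 higher (limma adjusted p = 0.0359 over all probes). From E8.5 to E9.5 in the WT 3 of 10 passed, beside 41.9% of all genes. These were Fgf15, Dusp4 and Fgfr2, and in the KO, beside 34.2% of all genes, the 3 were Fgfr2, Fgfr3 and Dusp4. Fgfr2 was higher at E9.5 by 0.76 in the WT (limma adjusted p = 0.0123) and 0.87 in the KO (0.00747), and Fgfr3 by 1.28 in the KO (0.00620). With plate as a random block these calls were lost (0.65, 0.82 and 1.18, limma adjusted p = 0.122, 0.0629 and 0.0698). With its dim probes averaged in, Fgfr2 differed by 0.38 in the WT (limma adjusted p = 0.0713) and 0.11 in the KO (0.635). The lowest limma adjusted p over the 21 alternatives was 2.00e-08, 1.12e-08 and 2.38e-08, each from the series matrix. There the median of all genes moved to 0.45 in the WT and 0.48 in the KO. The counts of these genes called between E8.5 and E9.5 lay below the share of all genes called. They move with the scaling, to 7 in each genotype with median scaling and to 8 in each in the series matrix. Of all 10261 genes, 5753 in the WT and 6545 in the KO passed with median scaling, and 8402 and 8626 in the series matrix.

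Other genes of the pathway were taken from a list of 57 FGF family genes, receptors, cofactors, feedback inhibitors, targets and cascade components. Of these, 48 had a probe with their symbol in the platform annotation and 35 were tested. In limma, 0 of the 35 passed between KO and WT at E7.5, E8.0 and E8.5. There 3, 3 and 6 had an unadjusted p under 0.05, beside 817, 2039 and 2360 of all 10261 genes. At E9.5, 1 of the 35 passed, beside 2.27% of all genes. An unadjusted p under 0.05 was found for 9 of the 35, beside 1850 of all 10261 genes. Their median difference was 0.02 at E9.5 and -0.11 at E8.5. Of the FGF family genes, which the list places under ligands, 10 were tested, among them Fgf12, Fgf13 and Fgf14. Of the cofactors 5 were tested, of the feedback inhibitors 7, of the targets 4, of the cascade 8 and of the receptors 1.

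The gene that passed was Flrt3, a membrane protein that binds FGF receptors, and it was lower in the KO. At E9.5 it read 12.16, 11.92, 12.03 and 12.09 in the WT and 11.51, 11.47, 11.50 and 11.26 in the KO. All KO arrays were below all WT arrays, with a difference of -0.61 (SE 0.15, limma adjusted p = 0.0367). The call was lost when any 1 of the 8 arrays was left out (-0.66 to -0.56, limma adjusted p 0.0533 to 0.127), and over 23 alternatives the adjusted p ran from 0.000578 to 0.144. In the test of the KO effect at E9.5 against that at E8.5, 1 of the 35 passed, beside 10.1% of all genes. It was Ptpn11, a phosphatase that acts downstream of FGF receptors (0.59, SE 0.15, limma adjusted p = 0.0232). Its means were 12.84 in the WT and 12.53 in the KO at E8.5, and 12.52 in the WT and 12.79 in the KO at E9.5. That call was lost without E9.5 WT replicate 4 (0.51, 0.0510), E8.5 KO replicate 2 (0.57, 0.0578), E8.5 WT replicate 1 (0.61, 0.0504) or E8.5 WT replicate 2 (0.56, 0.0516), within a range of 0.00773 to 0.133 over 30 alternatives.

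**Figure D4:**
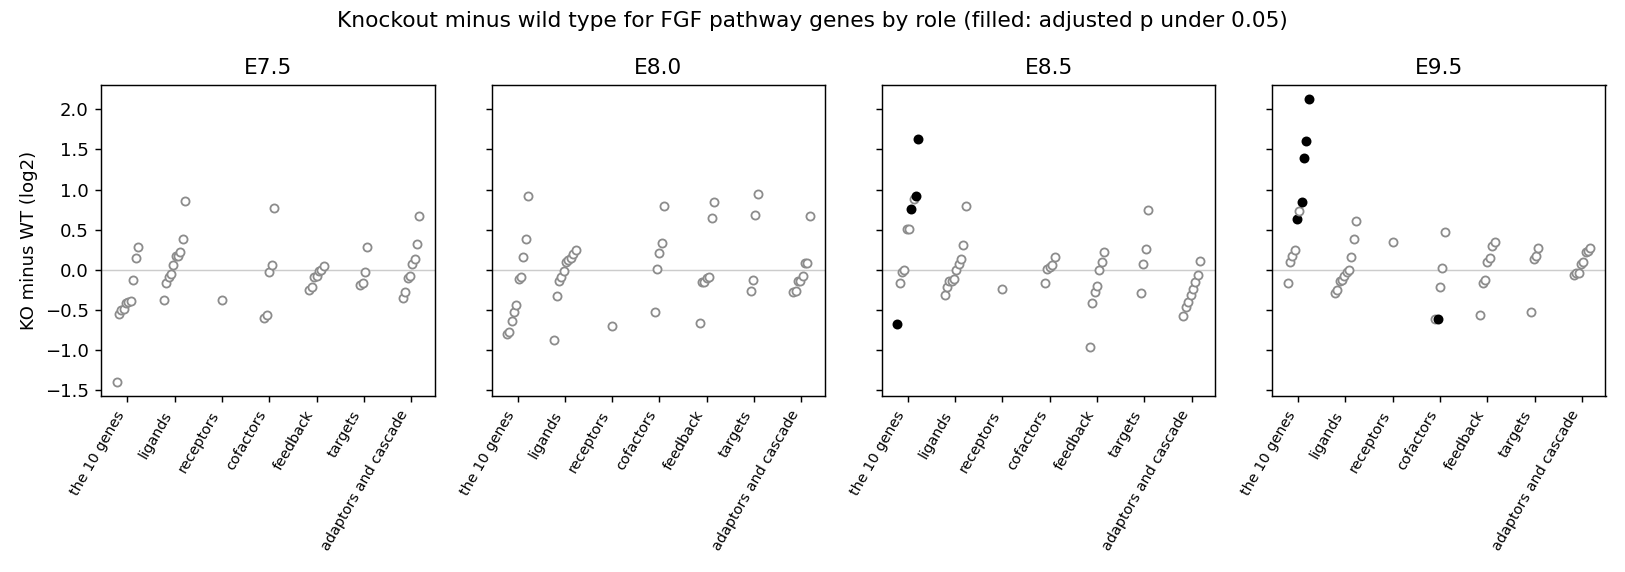
Difference KO minus WT (log2, vertical axis) at 4 stages for the 10 genes and for the 35 other tested pathway genes by role, 1 point to a gene, filled where limma's adjusted p was under 0.05. At E9.5 the filled points are 5 of the 10 genes above 0 and, among the others, Flrt3 at -0.61.

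From E8.5 to E9.5, 13 of the 35 passed in the WT, beside 41.9% of all genes, and 8 in the KO, beside 34.2%. These comparisons carry the scaling shift given above, and their directions were not followed under other scalings. Between E8.0 and E8.5 in the KO, 1 of the 35 passed, beside 3.21% of all genes. It was Spred3 (-0.81), a feedback inhibitor named after its value was seen.

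The genes whose log2 values ran most like those of Fgf15 over the 25 arrays, by Pearson correlation, were Epb41l4a (0.817), Celsr1 (0.810), Acot7 (0.809), Fgf13 (0.808) and Cercam (0.786). Without the 8 E9.5 arrays the correlations were 0.710, 0.736, 0.834, 0.741 and 0.622 over 17 arrays. These points share stage and plate, and no test was made. Of the other genes of the set, Fgfbp3 (0.582) and Fgf8 (0.527) were the most like Fgf15, at rank 172 and 311 of 10260 genes, and Dusp4 (-0.09) and Etv4 (-0.21) were below 0. At E9.5 Cercam differed by 1.40 between KO and WT, Celsr1 by 1.02 and Epb41l4a by 0.74, all 3 past the limma threshold, while Acot7 (0.41) and Fgf13 (0.38) were not.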

How the data were processed

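Per the file headers, each probe had on each array an average signal, which is a linear intensity as deposited and not normalized, and a detection p-value. The authors' own processed intensity came as a series matrix. The software behind both is not given in the sources used. Per the labels' protocols, RNA was extracted with Trizol and labelled as biotinylated cRNA. Raw signals were put through neqc of limma 3.58.1 in R 4.3.3 (normexp background from the detection p-values, quantile normalization, offset 16, log2). Probes with a detection p under 0.05 on at least 3 arrays were kept, and the probe with the highest mean stood for its gene. All 25 arrays in 9 groups entered lmFit and eBayes (16 residual degrees of freedom, 19.3 in all). Tests were two-sided, with Benjamini-Hochberg adjustment within each comparison. The steps were tested on simulated data. The number of arrays limits the precision.

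The 10 genes and the lists were chosen with earlier results of these data known. The text names all 10 genes, pathway genes that passed in a KO comparison, the 5 genes most like Fgf15 and, chosen after their values were seen, Spred3 and marker genes that passed or were checked for detection. Alternatives covered offset, background, scaling, filter, probe choice, plate, the E8.0 identities, array weights, the replicate number and each array left out. Matching the 3 E8.0 WT detection columns to the signals was added after seeing the data. Same-numbered KO and WT arrays deviated together by -0.135 to 0.161 (correlation), so numbers were not taken as pairs.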

Additional observations from a re-analysis of the deposited data

Results flagged for a closer look

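Within the groups of 4 E9.5 arrays, a test for single outlying arrays (Dixon's, at 95%) was run on 20 groups, where chance marks about 1 in 20. It marked 3. Fgf17 on KO replicate 3 read 8.60, below the other KO arrays. Fgfbp3 on WT replicate 4 read 8.47, below the other WT arrays. Etv4 on KO replicate 2 read 8.90, above the other KO arrays.

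The KO effect differed between E9.5 and E8.5 for Fgf15 by 1.21 and for Dusp4 by 1.52, both past the threshold of limma's test of that difference.

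The whole-embryo WT array of E8.0, as the raw table names it, stayed outside the comparisons. It read above both E8.0 WT neural arrays for Fgf15 (9.87), Fgfr1 (7.21) and Dusp4 (10.55), and below both for Fgf17 (8.40), Fgfbp3 (6.99), Fgfr2 (7.56), Fgfr3 (6.15) and Etv4 (7.64). Its marker means were above both for trophoblast (8.04 beside 7.12 and 7.45), midbrain and isthmus (9.53 beside 9.15 and 9.20) and forebrain (7.12 beside 6.71 and 6.72). That of head mesenchyme and neural crest was also above both (8.31 beside 7.90 and 8.30). They were below both for neural progenitors (7.15 beside 7.42 and 7.54), primitive streak and caudal (5.97 beside 6.10 and 6.13) and surface ectoderm (9.14 beside 9.28 and 9.49). Hindbrain and blood means lay between the WT neural arrays. The series matrix and the detection columns give this array's signals to a neural sample.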

How the results depend on the processing

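Of the values recomputed under the alternatives, 1270 kept their direction and side of the threshold or, for counts, stayed close to the main count, 108 lost a call, 8 gained one, 43 turned direction and 45 counts moved. The number of the 10 genes called between KO and WT at E8.0 (main 0) was 1 with offset 50 (232 of all genes). It was 1 without background correction (226 of all genes) and 2 with array weights. At E8.5 (main 4) it was 2 with offset 1 and 2 without a detection filter, beside 522 of 10261 and 542 of 16593 genes. It fell to 0 with median scaling (203 of all genes), stages fitted alone (0), plate as a covariate (99) or plate as a random block (223). At E9.5 (main 5) it was 2 with offset 1 and 3 without a filter, beside 169 of 10261 and 186 of 16593 genes. Leaving out single arrays gave 0 to 1 at E7.5, 0 to 3 at E8.5 and 1 to 5 at E9.5. From E8.0 to E8.5 in the KO (main 1) the count was 2 with offset 50 (327 of all genes) or without background correction (289). It was 0 with median scaling (86), stages alone (18) or array weights. It was 3 with plate as a covariate (772), and 0 to 4 with single arrays left out. From E8.5 to E9.5 it was 7 with median scaling and 8 in the series matrix for both genotypes (main 3). Of all genes, 5753 (WT) and 6545 (KO) passed with median scaling, and 8402 and 8626 in the series matrix. For the KO the count of the 10 genes was 5 with stages alone (3988 of all genes). It was 0 with plate as a random block (1892) and 5 with array weights. All alternatives together called 1892 to 8626 of all genes there. For the difference between stages (main 2) it was 1 with plate as a covariate (228 of all genes), and 1 to 2 with single arrays left out. All alternatives together called 87 to 1947 of all genes there.

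The E8.0 difference of Fgf15 passed with offset 50 (0.88), without background correction (0.80) and with array weights (1.14). Its E8.5 difference did not pass with median scaling (0.89), stages alone (0.92), plate as a covariate (0.93), plate as a random block (0.93) or within one plate (0.93), and single arrays left out gave 0.82 to 1.03. The difference between stages did not pass with plate as a covariate (1.19) or within one plate (1.19), and ran from 1.07 to 1.33 with single arrays left out. From E8.0 to E8.5, Fgf15 in the WT turned to -0.23 in the series matrix, -0.0304 with plate as a covariate, -0.14 with the whole-embryo array added and -0.28 with the matrix's identities, alone or with matched detection columns, and ran from -0.0155 to 0.13 with single arrays left out. In the KO it turned to -0.0849 with array weights and ran from -0.12 to 0.24. From E8.5 to E9.5 Fgf15 in the WT turned to 0.14 in the series matrix, and Dusp4 in the KO to 0.34 with median scaling and 0.26 in the series matrix.

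Directions of small, uncalled differences also turned. Fgf8 at E8.0 became 0.0314 with median scaling, 0.0161 with plate as a covariate, 0.10 within one plate or with the replicate block, 0.0171 with the whole-embryo array and 0.00508 with array weights (-0.43 to 0.25 with single arrays left out). Dusp4 at E8.0 became 0.0096 with median scaling (-0.30 to 0.0518). Fgfr1 at E8.5 became 0.0049 with cyclic loess, 0.28 with plate as a covariate or within one plate, 0.0335 with plate as a random block and 0.0152 with array weights (-0.19 to 0.18). Fgfr2 became 0.26 at E8.5 and -0.0121 at E9.5 with probes averaged, 0.00062 at E8.5 with cyclic loess, 0.0037 with array weights, and 0.0571 at E7.5 with plate as a covariate, with ranges of -0.0352 to 0.0327 at E8.5, -0.0102 to 0.20 at E9.5 and -0.67 to 0.41 at E7.5. Fgf17 at E8.0 became 0.0311 within one plate or with the replicate block (-1.25 to 0.0311), at E7.5 it ran from -0.25 to 0.55, and Etv4 at E8.0 from -0.0848 to 0.35. The cause of these changes was not tested.

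With the replicate number as a block, Fgf15 differed by 2.13 at E9.5, 0.92 at E8.5 and 1.10 at E8.0, and the block changed no call among the 10 genes in the KO comparisons; it ended those of Flrt3 (-0.61) and Ptpn11 (0.59). With the detection columns matched to the signals, chosen after seeing the data, no call among the 10 genes changed. Over all genes, the alternatives called 0 to 60 at E7.5 (main 23), 0 to 695 at E8.0 (178), 0 to 1172 at E8.5 (574), 62 to 1588 at E9.5 (233) and 87 to 1947 for the difference between stages (1038). Between stages they called 0 to 76 (4) and 18 to 772 (329) from E8.0 to E8.5 in the WT and KO, and 3040 to 8402 (4298) and 1892 to 8626 (3508) from E8.5 to E9.5. Plate as a covariate could not be fitted between E8.5 and E9.5 within a genotype, and the replicate block was not run between stages. Spry1 and dim probes lie near background, which limits what they can show.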
